A study of Mus musculus with 12 samples.

Results

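The canonical NF-kB subunits Rel and Rela, the inhibitors of the IkB family Nfkbia, Nfkbib, Nfkbie, Nfkbiz, Nfkbid and Bcl3, and the ubiquitin-dependent inhibitors Tnfaip3 and Tnip1 were followed in splenic dendritic cells (DCs) of mice. These 10 genes were taken by symbol, through every probe set of the array that is annotated to only 1 of them, which gave 19 probe sets of 45101 (0 were shared with another symbol). Nfkbia had 5 probe sets, Nfkbiz 3, Nfkbib, Nfkbie and Tnfaip3 2 each, and the other 5 genes 1 each. All 19 passed the filter on dim values (3 or more arrays on which the set exceeds that array's 40th percentile) and so entered the tests, 17 of them on all 12 arrays.

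The arrays fell into 4 groups. WT animals were heterozygous littermates and so carry 1 copy of the mutation as well, and aly animals were Alymphoplasia mice, whose mutation lies in Map3k14, the kinase NIK. Mice of either genotype were left untreated or were injected intraperitoneally with 25 µg LPS and 100 µg of an agonistic antibody against CD40, and DCs were taken 6 h later, selected on CD11c beads and then sorted. Each group had 3 arrays and each array held DC RNA pooled from 3 mice, so the p-values below measure the spread between pools and not between single animals. The sources used here give no age, sex or strain background.

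NF-kB dimers that contain Rel (c-Rel) or Rela (p65) are held in the cytoplasm by the IkB proteins until the IKK complex, switched on by Toll-like receptors or CD40, marks these inhibitors for degradation. Freed dimers bind kB sites in DNA and induce, among many genes, their own inhibitors, which makes the pathway limit itself. The aly mutation is known for blocking the other, NIK-dependent branch, which processes p100 (Nfkb2) to release Relb, while the canonical branch is the one classically described as independent of NIK. Only transcripts of the members were read here, and neither IkB protein nor NF-kB activity was measured.

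Because the members are regulators and many are described as targets of NF-kB, the RefSeq promoter windows of GRCm38.p6 (250 bases before to 50 after an annotated start) were searched on both strands for the 10-base kB consensus. Of the members, 9 have windows (12 in all, Nfkbiz is named only), and 7 windows belonging to 7 genes held at least 1 match. The same consensus was found in 8.46% of all 32851 windows. The sequences of 5 genes with a match in the 150 bases before the start are shown 5′ to 3′ on the gene's strand, with the matched bases in capitals so that the place and letters of each match can be seen.
Rel, chr11:23770970-23771119, minus strand: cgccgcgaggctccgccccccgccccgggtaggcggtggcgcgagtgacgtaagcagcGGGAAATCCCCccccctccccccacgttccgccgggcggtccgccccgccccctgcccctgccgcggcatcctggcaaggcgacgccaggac
Nfkbia, chr12:55492648-55492797, minus strand: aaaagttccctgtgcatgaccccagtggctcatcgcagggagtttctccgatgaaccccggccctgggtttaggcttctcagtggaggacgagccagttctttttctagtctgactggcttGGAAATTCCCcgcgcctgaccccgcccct
Nfkbie, chr17:45555550-45555699, plus strand: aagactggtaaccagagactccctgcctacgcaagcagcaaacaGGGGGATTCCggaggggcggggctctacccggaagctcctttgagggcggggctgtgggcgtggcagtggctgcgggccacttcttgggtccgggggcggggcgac
Tnfaip3, chr10:19015411-19015560, minus strand: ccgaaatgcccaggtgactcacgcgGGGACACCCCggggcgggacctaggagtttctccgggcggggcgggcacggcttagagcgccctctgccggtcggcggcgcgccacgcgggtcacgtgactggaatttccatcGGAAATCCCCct
Tnip1, chr11:54962941-54963090, minus strand: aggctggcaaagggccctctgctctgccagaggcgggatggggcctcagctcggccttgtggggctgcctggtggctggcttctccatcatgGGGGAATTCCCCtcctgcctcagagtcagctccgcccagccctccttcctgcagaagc
Tnfaip3 held matches at bases -125 and -12 from the start, and Tnip1 held overlapping matches that first begin at base -58, on either strand. The match of Rel began at base -92, that of Nfkbia at -29 and that of Nfkbie at -106. Bcl3 held its match just inside the transcribed part, from base 3, and Nfkbid at bases -226 and -181 of 1 of its 3 starts, outside the stretches printed. The windows of Rela and Nfkbib held no match to these letters. A match is a description of the letters, and binding was not measured.

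Array quality differed between the genotypes and has to be read beside every genotype comparison. The 3′ probe sets of the Actb and Gapdh controls exceeded the 5′ ones by a mean log2 ratio of 3.07 ± 1.31 in aly and 1.57 ± 0.185 in WT arrays (SD, n = 6 each, exact two-sided permutation p = 0.00216). Without treated aly replicate 1 the difference was 0.984 (exact permutation p = 0.00433). That array stood apart, with an Actb ratio of 55.8 against 1.39 to 5.92 on the other arrays and rank correlations of 0.577 to 0.665 with them, against 0.739 to 0.883 among the rest. Poly-A spike-in controls read 5.8 to 21.4 on the replicate 1 arrays and 109 to 962 on replicates 2 and 3. The 5 members called in WT DCs and the 2 called in treated DCs (below) were also called in replicates 2 and 3 alone, and for some members those values are printed. Pan-DC markers (9 of 10 measured, 0 values at 0) summed to 38994 to 42080 in untreated and 22572 to 33747 in treated WT arrays, and to 42147 to 46612 and 29692 to 48634 in aly arrays. The sums of cDC1 markers, of a DC subset that cross-presents, lay between 11387 and 18846 in untreated and between 5101 and 7347 in treated WT arrays. The treatment called 7 of 9 lower and 1 higher there, beside 4.75% and 4.95% of all genes (3 to 7 lower with 1 array left out). In aly arrays these sums lay between 17643 and 18637 untreated and between 5954 and 12920 treated. Among treated DCs 1 of 9 was called higher in aly, beside 2.74% of all genes (0 to 4 with 1 array left out). The sums of plasmacytoid DC markers lay between 798 and 1116 in untreated and between 1966 and 2827 in treated WT arrays. Of these 8 markers, 2 were called higher with treatment in WT (1 to 2 with 1 array left out) and 1 lower. In treated aly arrays the sums lay between 1293 and 3843. Among treated DCs 1 of 8 was called lower in aly, beside 2.64% of all genes (0 to 1 with 1 array left out). Of 8 cDC2 markers, 2 were called lower and 0 higher in treated aly DCs (1 to 2 lower with 1 array left out). Their sums lay between 2674 and 3892 there and between 2902 and 3872 in treated WT arrays. Natural killer cell markers summed to 1135 to 1799 in untreated aly and 2256 to 3209 in untreated WT arrays, with 0 of 7 called. Neutrophil markers summed to 197.5 to 13749 in treated aly and 116 to 729 in treated WT arrays, with 0 of 6 called. Red pulp macrophage markers (12 of 12 measured, 0 values at 0) summed to 31689 to 73043 on aly arrays and 2525 to 17994 on WT arrays, and 7 of 12 were called higher in untreated and 5 of 12 in treated aly DCs (11 and 4 without treated aly replicate 1), beside 0.499% and 2.74% of all genes. With each array left out in turn, 0 to 11 of them were called higher in untreated and 0 to 8 in treated aly DCs. Erythroid markers (4 of 10 measured) summed to 487 to 2861 on aly and 25.0 to 347 on WT arrays. Monocyte markers (7 of 8 measured, 0 values at 0) summed to 10025 to 17707 on aly and 599 to 9421 on WT arrays, with 1 of 7 called higher in aly in either state. With 1 array left out this count was 0 to 1 in untreated and 0 to 2 in treated DCs. The part of RNA quality, of these cells and of the DC subsets in the genotype differences below was not tested. That of the DC subsets in the treatment responses was not tested either. In sorted pools, fewer cells of a type and less RNA per cell cannot be told apart.

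The treatment raised 5 of the 10 regulators in WT DCs: Bcl3, Tnfaip3, Nfkbib, Rel and Rela. Their fold changes ran from 3.23 for Rela to 8.97 for Bcl3, and the other 5 genes read higher without passing the test. Called means a Benjamini-Hochberg adjusted limma p under 0.05 over 15019 genes, 1 probe set each, on log2(intensity + 16). Of all genes, 4.95% were called higher. The 3 treated arrays lay above the 3 untreated arrays for 10 of 10 members, a pattern found for 14.3% of all genes. The members' median log2 change was 1.70, against -0.116 over all genes. With 1 array left out, 3 to 7 members were called, the fewest without WT treated replicate 1 and the most without treated aly replicate 1.

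In aly DCs the same treatment gave 0 called members (limma, 3 with an unadjusted p under 0.05), beside 0.453% of all genes called higher. Positive log2 changes were found for 10 of 10 members, with a median of 0.637 against -0.076 over all genes. The groups were apart for 4 of them, Rel, Nfkbia, Nfkbiz and Bcl3, as for 6.02% of all genes. The responses of the genotypes share no array, though the 4 groups share the estimate of the spread.

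Among treated DCs, aly read lower than WT for 9 of 10 members, and 2 of them, Rel and Tnfaip3, were called lower, beside 2.64% of all genes. The groups did not overlap for 7 (Rel, Rela, Nfkbie, Nfkbiz, Nfkbid, Bcl3 and Tnfaip3), as for 10.1% of all genes. The members' median was -0.852 against 0.188 over all genes. The treated WT arrays also enter the WT response, so calls of Rel and Tnfaip3 in both comparisons are not independent. The count of 2 became 0 without WT treated replicate 3, 1 without aly treated replicate 2 and 3 without aly treated replicate 1 or 3, and it was 0 when only the treated arrays were fitted (adjusted p = 0.087 for Rel and 0.099 for Tnfaip3). Among untreated DCs 0 members were called (limma, 2 with an unadjusted p under 0.05), beside 0.553% of all genes called in either direction. Rel and Nfkbiz lay below WT without overlap there, as did 9.86% of all genes, and Tnip1 lay above, as did 12.9%, though another probe set of Nfkbiz had the opposite sign in untreated and treated DCs. The genotype by treatment interaction, which tests whether the response itself differs, called 0 members (limma, 3 with an unadjusted p under 0.05), beside 0.153% of all genes called. A response called in WT and not in aly is therefore not shown to differ between the genotypes for any single member.

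**Figure D1:**
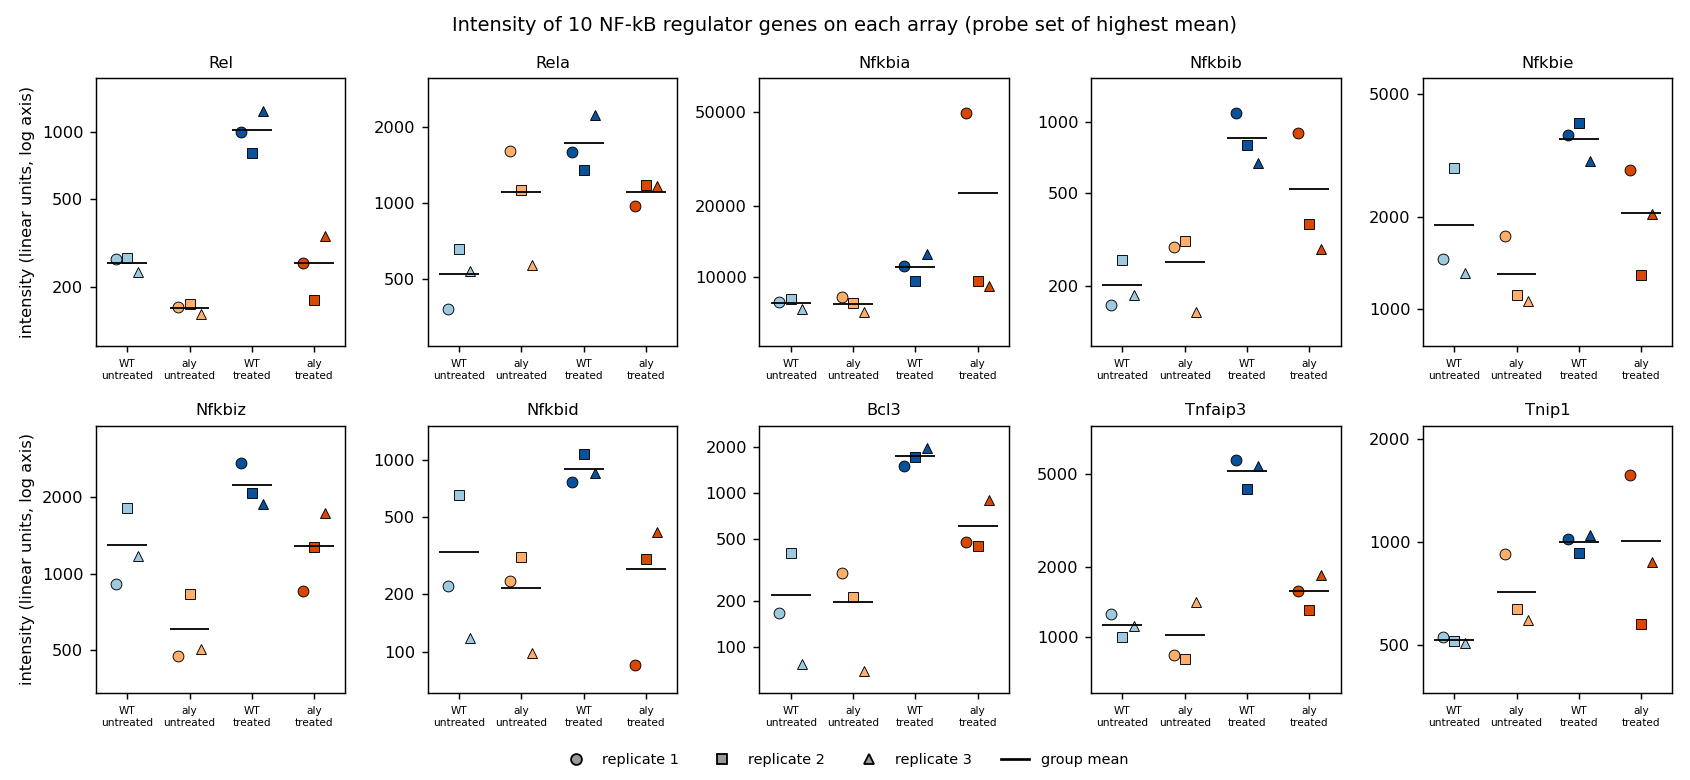
Intensity of the 10 genes on each of the 12 arrays (linear units on a log axis, 1 panel a gene, probe set of highest mean), with symbols for replicate number and a line for the mean of the 3 arrays of a group. Treated WT arrays (dark blue) stand above untreated WT arrays in every panel. For 7 genes (Rel, Rela, Nfkbie, Nfkbiz, Nfkbid, Bcl3 and Tnfaip3) they also stand above all treated aly arrays.

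Rel, the c-Rel subunit that is prominent in lymphoid and myeloid cells, gave the most even arrays of the subunits. Its WT arrays read 268, 268 and 233 untreated and 1002, 807 and 1248 treated. Its aly arrays read 163, 168 and 151 untreated and 255, 175 and 340.4 treated. Every treated WT array stood far above all other arrays of this gene, and untreated aly was the lowest of the groups. The means were 256 ± 20.5 (WT untreated), 160.3 ± 8.68 (aly untreated), 1019 ± 221 (WT treated) and 257 ± 82.8 (aly treated, SD, n = 3 each).

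Rel rose 3.75-fold in WT DCs (log2 change 1.91 ± 0.34, SE, limma adjusted p = 0.0022). It remained called in each of the 12 fits that left out 1 array. In aly DCs the log2 change was 0.59 ± 0.34 (adjusted p = 0.46), with no overlap between the groups. Treated aly DCs were 3.86-fold below treated WT DCs (log2 difference -1.95 ± 0.34, adjusted p = 0.0058). This call was lost without WT treated replicate 3 (log2 -1.79, adjusted p = 0.06) and was kept in the other 11 such fits. Replicate 1 alone differed by -1.91 and replicates 2 and 3 by -1.97 (adjusted p = 0.017). In untreated DCs the aly arrays lay below every WT array, with a log2 difference of -0.63 ± 0.34 that did not pass (adjusted p = 0.55). The interaction was -1.32 ± 0.49 (adjusted p = 0.48).

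Rela, the p65 subunit that forms the main canonical heterodimer with p50, varied widely among untreated aly arrays. WT arrays read 378, 659 and 535 untreated and 1592, 1351 and 2224 treated. Arrays of aly DCs read 1611, 1121 and 568 untreated and 975, 1178 and 1169 treated. Untreated aly arrays spanned the range from untreated to treated WT levels, and treated aly arrays lay within that same span. The means were 524 ± 141, 1722 ± 451, 1099.8 ± 522 and 1107 ± 115 in WT untreated, WT treated, aly untreated and aly treated DCs.

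Rela rose 3.23-fold in WT DCs (log2 1.69 ± 0.41, limma adjusted p = 0.015). Leaving out replicate 1 or 3 of either WT group ended the call, with adjusted p up to 0.091. Replicate 1 alone changed by 2.03, and replicates 2 and 3 by 1.52 (adjusted p = 0.048). In aly DCs the log2 change was 0.13 ± 0.41 (adjusted p = 0.92). The genotype difference was 0.96 ± 0.41 in untreated DCs (adjusted p = 0.42, with overlapping arrays, and 0.42 in replicates 2 and 3) and -0.60 ± 0.41 in treated DCs (adjusted p = 0.39), where the arrays did not overlap. The interaction of -1.56 ± 0.57 did not pass (adjusted p = 0.48).

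Nfkbia encodes IkB alpha, the inhibitor best known for being degraded first and then remade as an NF-kB target. On the probe set with the highest mean its WT arrays read 7803, 8020.2 and 7309 untreated and 11086, 9591 and 12436 treated. Its aly arrays read 8232, 7724 and 7094 untreated and 49556, 9570.1 and 9106 treated. The single value of 49556 is the array that stood apart in quality, and the other treated aly arrays lay just below the treated WT arrays. The WT groups were apart, yet the log2 change was 0.51 ± 0.51 (limma adjusted p = 0.63). In aly DCs it was 1.09 ± 0.51 (adjusted p = 0.39), and 0.28 (adjusted p = 0.85) without treated aly replicate 1. The treated genotype difference went from 0.57 to -0.23 when that array was left out, neither of them called.

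The 5 probe sets of Nfkbia did not give the same size of response. Their WT log2 changes were 0.51 on 1420088_at, 1.05 on 1420089_at, 1.25 on 1438157_s_at, 2.17 on 1448306_at and 1.84 on 1449731_s_at, in a fit over all 34205 probe sets past the filter. Of these, only 1449731_s_at was called (limma adjusted p = 0.022), and WT untreated replicate 3, WT treated replicate 1 and WT treated replicate 3 were each needed for that call. When treated aly replicate 1 was left out, 1438157_s_at (adjusted p = 0.0091) and 1448306_at (adjusted p = 0.0016) were called as well. On 1449731_s_at the WT arrays read 1460.3, 1426 and 650.1 untreated and 5384, 3321 and 3580 treated, while the aly arrays read 1076, 1087 and 807 untreated and 5618, 2414 and 1671 treated. On this set aly arrays also lay apart from each other by treatment, with a log2 change of 1.51 that did not pass (adjusted p = 0.25). Treated aly replicate 1 was the highest of the 12 arrays on every one of the 5 sets.

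**Figure D2:**
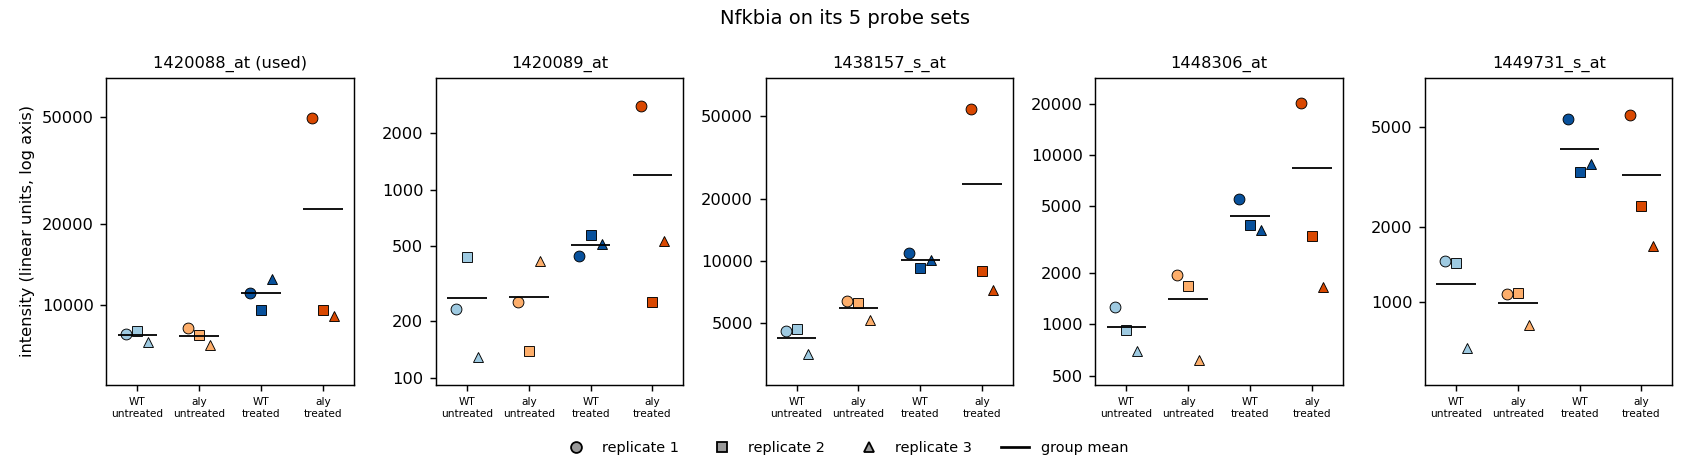
Nfkbia on each of its 5 probe sets (intensity in linear units, log axis, 1 symbol an array, line for the mean of 3 arrays). Treated aly replicate 1 is the highest array in each panel, and the treated and untreated WT arrays are farther apart on 1448306_at and 1449731_s_at than on the set of highest mean.

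Nfkbib encodes IkB beta, a slower inhibitor of the same dimers. The WT arrays read 167, 258 and 183 untreated and 1097, 797 and 667 treated. The aly arrays of this gene read 294, 310.5 and 155 untreated and 897, 369 and 288 treated, with the highest treated value again on replicate 1. Nfkbib rose 3.96-fold in WT DCs (log2 1.98 ± 0.44, limma adjusted p = 0.009), a call lost without WT treated replicate 1 (adjusted p = 0.055). Replicate 1 alone changed by 2.61 and replicates 2 and 3 by 1.67 (adjusted p = 0.028). In aly DCs the log2 change was 0.87 ± 0.44 (adjusted p = 0.40). It came to 0.40 when treated aly replicate 1 was taken out. The treated genotype difference was -0.84 ± 0.44 (adjusted p = 0.26), and without that array it was -1.32 and called (adjusted p = 0.045). The second probe set, 1446718_at, rose with the treatment in WT by 1.93 (adjusted p = 0.03), from 13, 12 and 13.4 to 67.8, 117 and 103. It passed the filter through treated arrays (3 of 3 in each treated group, 0 of 3 untreated WT), so its change is no support for the first.

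Nfkbie encodes IkB epsilon, an inhibitor that is itself induced by NF-kB and acts mainly on dimers with Rel or Rela. On the set with the highest mean, 1458299_s_at, WT arrays read 1463, 2882 and 1313 untreated and 3690, 4019 and 3040.5 treated. The aly arrays read 1729, 1116 and 1063 untreated and 2827, 1291 and 2041 treated. All treated WT arrays stood above all treated aly arrays, although the tests did not pass: the WT log2 change was 1.00 ± 0.41 (limma adjusted p = 0.14) and the treated genotype difference -0.86 ± 0.41 (adjusted p = 0.22).

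On the other set of Nfkbie, 1431843_a_at, treated WT arrays read 1537, 1659 and 1610 and treated aly arrays 224, 245 and 517. Untreated arrays there read 411, 1212 and 414 in WT and 407, 294 and 272.5 in aly DCs. The WT log2 change on this set was 1.41 (limma adjusted p = 0.07). It was called without treated aly replicate 1 (adjusted p = 0.024) or WT untreated replicate 2. Treated aly DCs were 5.02-fold lower on this set (log2 -2.33 ± 0.45, adjusted p = 0.01 in the fit over all probe sets). The call was lost without WT treated replicate 3 (adjusted p = 0.073) and was -2.11 (adjusted p = 0.011) when treated aly replicate 1 was left out. The sets of Nfkbie thus had the same sign in treated DCs but differed in size.

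The nuclear members of the IkB family bind p50 or p52 homodimers on DNA and can act as activators or repressors of secondary response genes. Bcl3 was the member with the largest WT change. In WT DCs Bcl3 read 166.5, 411 and 77.6 untreated and 1509, 1726 and 1967 treated. In aly DCs it read 304, 211 and 69.7 untreated and 483, 454 and 908 treated. Treated arrays stood above untreated arrays in each genotype, and every treated WT array stood above every treated aly array. The untreated arrays were spread widely in either genotype, with means of 218 ± 173 in WT and 195 ± 118 in aly DCs (SD).

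Bcl3 rose 8.97-fold in WT DCs (log2 3.17 ± 0.55, limma adjusted p = 0.0016) and remained called in all 12 fits that left out 1 array. Replicates 2 and 3 changed by 3.22 (adjusted p = 0.0067). In aly DCs the log2 change was 1.71 ± 0.55, the largest of the members there, and did not pass (adjusted p = 0.26). The treated genotype difference was -1.53 ± 0.55 (adjusted p = 0.11). The untreated difference was -0.08 ± 0.55 (adjusted p = 0.98), with an interval from -1.24 to 1.09, so it was not resolved at this number of arrays.

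Nfkbid encodes IkB NS, described in mice as a regulator of inflammatory cytokine genes. Nfkbid in WT DCs read 219, 650.5 and 118 untreated and 760.3, 1073 and 851 treated. Nfkbid in aly DCs read 233, 311 and 98.5 untreated and 85.2, 305 and 419.6 treated. Treated aly arrays overlapped untreated ones and lay below all treated WT arrays. The WT log2 change was 1.71 ± 0.60 (limma adjusted p = 0.089), and it was called without WT untreated replicate 2 (2.34, adjusted p = 0.032) or treated aly replicate 1 (adjusted p = 0.022). The treated genotype difference was -1.90 ± 0.60 (adjusted p = 0.078), -2.32 without treated aly replicate 3 (adjusted p = 0.034) and -1.27 without treated aly replicate 1 (adjusted p = 0.19). The aly log2 change was 0.20 ± 0.60 (adjusted p = 0.91), and 0.95 in replicates 2 and 3.

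Nfkbiz encodes IkB zeta, known as an inducible co-activator of Il6 and Lcn2 in myeloid cells. In WT DCs Nfkbiz read 908, 1822 and 1172 untreated and 2741, 2089 and 1890.0 treated. The aly values were 473, 831 and 506 untreated and 852, 1274 and 1742 treated. On this probe set untreated aly arrays lay below all untreated WT arrays, while treated aly arrays overlapped the untreated WT arrays. The log2 change was 0.82 ± 0.40 in WT (limma adjusted p = 0.23, and 0.44 in replicates 2 and 3) and 1.06 ± 0.40 in aly DCs (adjusted p = 0.32). The genotype difference was -1.07 ± 0.40 untreated (adjusted p = 0.31) and -0.83 ± 0.40 treated (adjusted p = 0.22).

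The 3 probe sets of Nfkbiz disagreed on the sign of the genotype difference. In untreated DCs it was -1.07 on 1417483_at, -0.38 on 1457404_at and 0.99 on 1448728_a_at, where the WT arrays read 130, 95.8 and 72.6 and the aly arrays 299, 126 and 239.5. In treated DCs it was -0.83, -0.92 and 0.54 in the same order. None of these was called, and no genotype direction is given for Nfkbiz. The WT log2 changes with treatment were 0.82, 0.85 and 1.46 in the same order, none of them called. Without treated aly replicate 1 that of 1448728_a_at was called (limma adjusted p = 0.022).

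Tnfaip3 encodes A20, the ubiquitin-editing enzyme that shuts down signalling upstream of the IKK complex. Its WT arrays read 1260.3, 999 and 1116 untreated and 5759, 4308 and 5416.5 treated. Its aly arrays read 839, 803 and 1411 untreated and 1580, 1310.1 and 1843 treated. The treated WT arrays formed a separate cluster, with a mean of 5161 ± 758 against 1125 ± 131, 1018 ± 341 and 1578 ± 267 in WT untreated, aly untreated and aly treated DCs (SD, n = 3 each).

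Tnfaip3 rose 4.52-fold in WT DCs (log2 2.18 ± 0.35, limma adjusted p = 0.00078) and remained called in all 12 fits that left out 1 array. The aly log2 change was 0.66 ± 0.35 (adjusted p = 0.42). Treated aly DCs were 3.25-fold lower than treated WT DCs (log2 -1.70 ± 0.35, adjusted p = 0.013). The call was lost without WT treated replicate 3 (adjusted p = 0.089) or aly treated replicate 2 (adjusted p = 0.051). Replicate 1 alone differed by -1.86 and replicates 2 and 3 by -1.63 (adjusted p = 0.038). The untreated difference was -0.18 ± 0.35 (adjusted p = 0.89), and the interaction was -1.52 ± 0.49 (unadjusted p = 0.00689, adjusted p = 0.37).

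The second probe set of Tnfaip3, 1450829_at, moved the same way. It read 27.8, 37.2 and 24.1 untreated and 136, 112 and 101 treated in WT, and 60.7, 10.7 and 27.1 in treated aly DCs. Its WT change was 1.54 (limma adjusted p = 0.029) and its treated genotype difference -1.57 (adjusted p = 0.039). The first call was lost without any 1 of the 6 WT arrays, and the second was kept in 3 of the 12 fits that left out 1 array.

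Tnip1 encodes ABIN1, a ubiquitin-binding adaptor that works with A20. Tnip1 on WT arrays read 529, 514 and 505 untreated and 1018.5, 928 and 1049 treated. On aly arrays it read 919.9, 636 and 591 untreated and 1565, 576 and 872 treated. The WT groups were tight, and each treated WT array was well above each untreated one. The log2 change was 0.93 ± 0.38 in WT (limma adjusted p = 0.15) and was called without treated aly replicate 1 (adjusted p = 0.038). In aly DCs it was 0.39 ± 0.38 (adjusted p = 0.67), and 0.01 without treated aly replicate 1. Untreated aly arrays all lay above untreated WT arrays (log2 0.43 ± 0.38, adjusted p = 0.74), and the treated difference was -0.11 ± 0.38 (adjusted p = 0.89, and -0.47 in replicates 2 and 3).

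**Figure D3:**
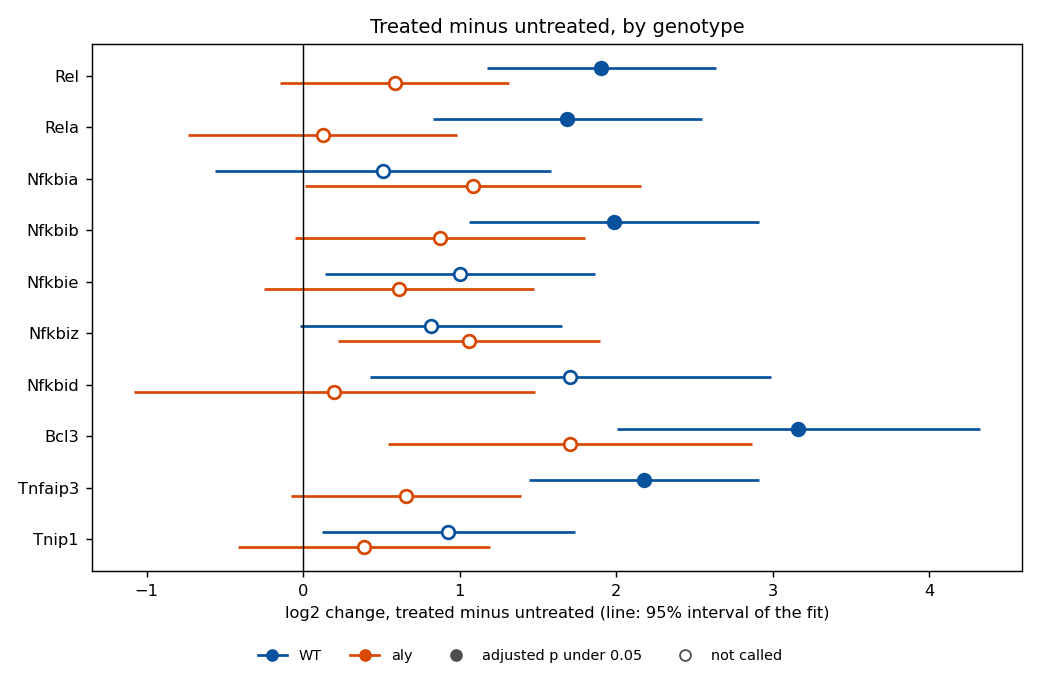
Treated minus untreated log2 change of each gene in WT (blue) and aly (orange) DCs, with the 95% interval of the fit over 12 arrays and filled symbols for an adjusted p under 0.05. In WT the 5 filled genes run from 1.69 for Rela to 3.17 for Bcl3, and in aly none is filled.

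**Figure D4:**
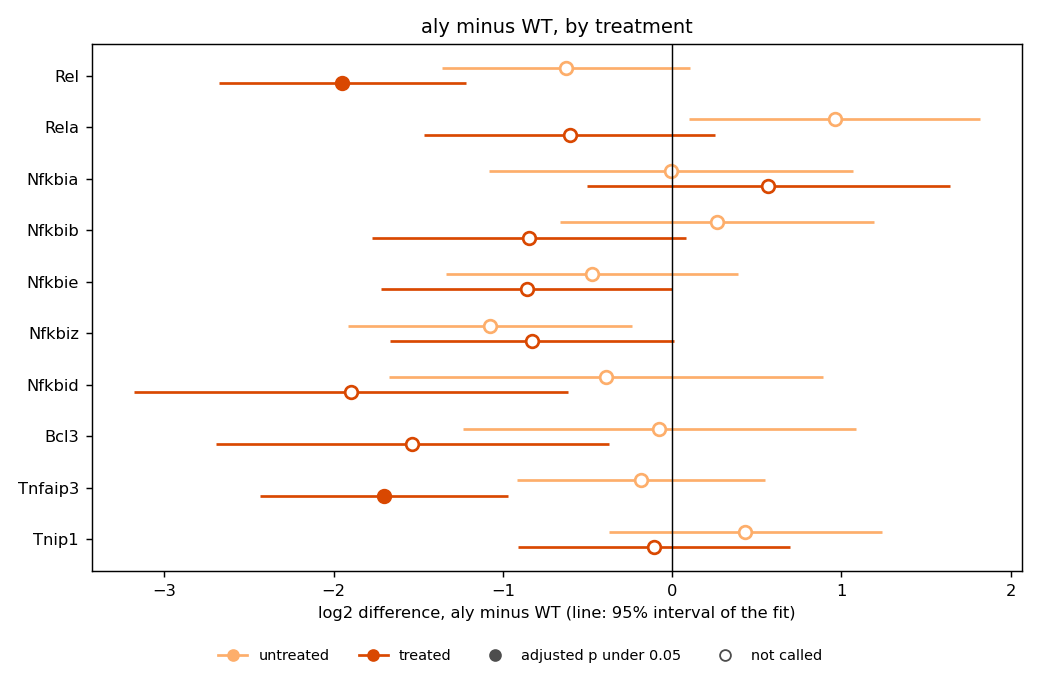
The log2 difference of aly minus WT for each gene in untreated (light orange) and treated (dark orange) DCs, with the 95% interval of the fit and filled symbols for an adjusted p under 0.05. The filled symbols are Rel at -1.95 and Tnfaip3 at -1.70, both in treated DCs.

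Over the 19 probe sets, 19 had a positive WT change and 8 were called higher, beside 3.82% of the 34205 probe sets fitted. Without 1446718_at of Nfkbib, which no untreated WT array brought past the filter, 7 of 18 were called. In aly DCs 18 were positive and 0 were called, beside 0.257% called higher. Among treated DCs 4 were called lower in aly, beside 2.01% of all probe sets, and these were the sets of Rel, both of Tnfaip3 and 1 of Nfkbie. Sets of 1 gene share their RNA and are not independent of each other.

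**Figure D5:**
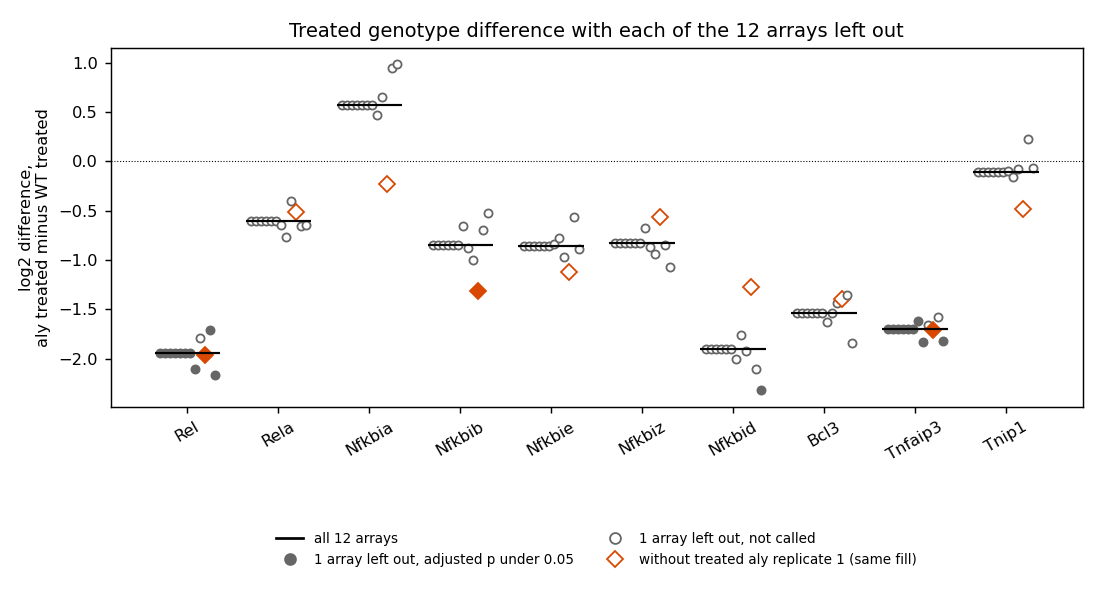
The log2 difference of aly minus WT among treated DCs for each gene, with all 12 arrays (line) and with each array left out in turn (circles, filled where the adjusted p was under 0.05, and a diamond for the fit without treated aly replicate 1). Rel stays between -2.16 and -1.71 and Tnfaip3 between -1.83 and -1.58. Both lose their call without WT treated replicate 3, and Tnfaip3 also without aly treated replicate 2. Nfkbia changes sign, from 0.57 to -0.23, without treated aly replicate 1. Tnip1 also takes either sign, between -0.48 and 0.23.

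Other parts of the pathway were read from lists of genes, against the same shares of all genes called. Both measured subunits of the NIK-dependent branch rose in WT DCs, Nfkb2 by 10.5-fold (log2 3.39 ± 0.48, limma adjusted p = 0.00029) and Relb by 6.15-fold (log2 2.62 ± 0.44, adjusted p = 0.0012). Relb read 852, 1036 and 653 in untreated and 4839, 4236 and 6861 in treated WT arrays, and 1085, 1117 and 2083 in treated aly arrays. Treated aly DCs were 3.79-fold lower in Relb (log2 -1.92, adjusted p = 0.021), a call lost without WT treated replicate 3 or aly treated replicate 2. Nfkb2 was not called in that comparison (log2 -1.06, adjusted p = 0.2), and its aly log2 change was 1.83 (adjusted p = 0.14). The interaction passed for neither Nfkb2 nor Relb (limma adjusted p = 0.6 and 0.5). Nfkb1 was not analysed here.

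Of 11 measured kinases of the IKK complex and upstream of it, 2 rose in WT DCs: Ikbke, an IKK-related kinase (log2 3.89, limma adjusted p = 8.5e-05), and Map3k14 (log2 1.66, adjusted p = 0.048). The call of Map3k14 was kept in 2 of the 12 fits that left out 1 array, and the list had 4 higher and 1 lower when treated aly replicate 1 was left out. Its levels do not check the aly labels, since the mutant transcript is still read by the probe set: it averaged 157 and 167 in untreated WT and aly DCs. Map3k8, the kinase TPL2 that binds p105, was the 1 member of this list called lower in treated aly DCs (log2 -2.74, adjusted p = 0.0097), with 997, 645 and 1220.2 in WT and 32.5, 195 and 255.5 in aly arrays. That call was lost without WT treated replicate 3. Ikbkb, the catalytic subunit of the canonical branch, was called in neither comparison (log2 1.32, adjusted p = 0.092 in the WT response).

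Of 18 adaptors and ubiquitin ligases, 5 rose and 1 fell in WT DCs, where 4.75% of all genes fell. Birc2, a ubiquitin ligase that keeps NIK low in resting cells, rose 8.03-fold (limma adjusted p = 0.00034). Rnf31 of the linear ubiquitin ligase complex rose 4.10-fold (adjusted p = 0.0044), and Traf6, which carries Toll-like receptor signals, rose 3.01-fold (adjusted p = 0.008, lost without WT untreated replicate 3). Traf1, an adaptor of TNF receptors, rose in either genotype, by 2.02 in WT (adjusted p = 0.01) and 2.15 in aly DCs (adjusted p = 0.047) on the log2 scale. Its WT call was lost without WT treated replicate 3, and its aly call was kept in 1 of the 12 fits that left out 1 array, with a log2 change of 1.63 (adjusted p = 0.094) without treated aly replicate 1.

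A list of 11 measured genes held partners of A20, deubiquitinases and Tnfaip8l2, which belongs to neither kind. Of these, Usp18, which removes ISG15, and Tnip2 (ABIN2), a partner of A20 and TPL2, rose in WT DCs, by 8.36-fold and 6.19-fold. Tnfaip8l2 and Itch fell there, by 1.81 and 1.67 on the log2 scale (limma adjusted p = 0.029 and 0.038), calls kept in 7 and 5 of the 12 fits that left out 1 array. Tnip2 read 533, 708 and 764 in treated WT and 37.3, 92.9 and 198 in treated aly arrays, a 6.29-fold difference (log2 -2.65, adjusted p = 0.0047) that remained called in all 12 fits that left out 1 array. Usp18 was 4.36-fold lower (adjusted p = 0.0082), a call lost without WT treated replicate 3.

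Of 10 other nuclear regulators 0 rose and 1 fell in WT DCs. That gene was Pdlim2, a nuclear ubiquitin ligase for p65 (log2 -1.63, limma adjusted p = 0.023), and its call needed each of WT untreated replicates 2 and 3 and WT treated replicates 1 and 3.

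Of 29 measured genes known as canonical NF-kB targets, 18 rose in WT and 5 in aly DCs, with medians of 2.00 and 1.07 on the log2 scale against -0.116 and -0.076 over all genes. With 1 array left out, 13 to 20 were called in WT, and 1 to 6 in aly DCs, where 1 was called without aly untreated replicate 2, 1 without aly untreated replicate 3 and 3 without aly untreated replicate 1. In treated DCs 6 were lower in aly, 3 without WT treated replicate 3, 4 without aly treated replicate 2 and 10 without aly treated replicate 1. Cd80, a co-stimulatory ligand, read 1099, 1948 and 2086 in treated WT and 179, 107 and 193.5 in treated aly arrays (log2 -3.28, limma adjusted p = 0.00051), and Il6 read 316, 440.0 and 301 against 82.4, 28.2 and 26.4 (log2 -2.67, adjusted p = 0.0021). Cd80 was also the 1 gene of the list with a called interaction (log2 -2.96, adjusted p = 0.046), a call kept in 1 of the 12 fits that left out 1 array. Of 8 measured genes reported to need IkB zeta, 4 rose in WT DCs (Il6, Lcn2, Ebi3 and Ccl17). Nfkbiz itself was not called with all 12 arrays, though its set 1448728_a_at was called without treated aly replicate 1 (limma adjusted p = 0.022). In aly DCs the log2 changes of Ccl17 and Lcn2 were 2.52 and 2.33 and did not pass (limma adjusted p = 0.15 and 0.26). Lcn2 read 0.6, 12.1 and 3.8 on untreated WT arrays and passed the filter on 0 of these 3, so its entry into the test rested on arrays where it is high and it is no support for the count. With 1 array left out, 2 to 5 of these 8 were called in WT, the fewest when replicate 1 of either WT group or WT untreated replicate 3 was taken out.

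The genes whose log2 values followed each member most closely over the 12 arrays were found by Pearson correlation. The closest to Rel was Parp14 (r = 0.985), to Bcl3 Ssh1 (0.976) and to Nfkbie Rest (0.947). The closest to Tnfaip3 was Cxcr5, with r = 0.982 over the 11 arrays without treated aly replicate 1. Nfkb2 was among the 3 closest to Nfkbib (0.957). The closest to Nfkbia was Tpm3 (0.990, and 0.901 over the 11 arrays without treated aly replicate 1). These values describe the arrays only, since the points share the 4 groups and the common scaling. Among the members, the correlations of Nfkbia with the other 9 had a median of 0.244 over 12 arrays and of 0.792 over the 11 arrays, whereas the 36 pairs without Nfkbia had medians of 0.709 and 0.790.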

How the data were processed

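DC RNA of 12 pools was amplified in 2 rounds and hybridised to Affymetrix whole-genome mouse arrays, per the labels' protocols. The deposited values are linear intensities, 1 per probe set, and the 2% trimmed mean of each array is 150, so each was scaled to a common level before deposit; the sources used here name neither software nor background step. The columns that matched no sample numbered 0. Of 45101 probe sets, 34958 had 1 symbol, 932 several and 9211 none; 34754 matched a current entry by Entrez ID, with 0 symbols changed.

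Intensities were taken as log2(value + 16), kept above the 40th percentile on at least 3 arrays (34205 probe sets) and reduced to the set of highest mean per gene (15019 genes). A limma 3.58.1 fit in R 4.3.3 used the 4 group means of all 12 arrays, with Benjamini-Hochberg adjustment within each of 5 contrasts, and was tested on simulated data. SEs and intervals are those of this fit, and the number of arrays limits their precision.

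All members are named, and of each other list up to 4 genes of smallest p in a contrast, with Nfkb2, Relb, Ikbkb and Map3k14 always. For likeness, the 3 genes of highest correlation per member were taken. The members, lists and the batch of spike-in level were chosen with earlier results of these data known. Alternatives were other offsets, no filter, median or quantile scaling, all probe sets, blocks, array weights, only the groups compared and each array left out; the fit of replicates 2 and 3 alone was added after seeing the data. Same-numbered arrays correlated between -0.031 and 0.303 in their deviations from the group means, with medians of 0.141, 0.113 and 0.053 for replicates 1, 2 and 3. These values alone do not decide whether the numbers pair the arrays. The main fit took no pairing, and the replicate number as a block was an alternative.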

Additional observations from a re-analysis of the deposited data

How the results depend on the processing

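Over the offsets, filter, scalings, probe set rule and blocks, the WT response kept 5 called members and the treated genotype difference 2, except that the replicate block gave 3, adding Nfkbid (adjusted p = 0.047). Among treated DCs, array weights called 6 and a fit of only the groups compared 0, and with 1 array left out 0 to 3 were called. In the WT response array weights called 8, only the groups compared 7, and leaving out 1 array gave 3 to 7. In the interaction array weights called 1, Rel (log2 -1.65, adjusted p = 0.046). The weights were 0.13, 3.06 and 0.795 for treated aly replicates 1, 2 and 3, so the weighted treated aly means rest mostly on replicate 2. For Rel, replicate 2 was the lowest treated aly array (174.8, against 255.4 and 340.4). With the replicate number as a block the counts were 5, 0, 0, 3 and 0 over the 5 contrasts; 9 of 12 arrays correlated best with their own number, a hint from the data and not the design. No called member changed sign; 24 values called in neither setting did. The cause of these changes was not tested.

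Counts over all genes moved more. The WT response called 1458 genes, and 898 (offset 1), 893 (median centring), 2895 with only the groups compared, 3370 with array weights, 2237 of all probe sets and 587 to 2843 with 1 array left out. The aly response called 73, and 11 (offset 1), 45 (median centring), 6 (groups compared), 164 with weights, 120 with the spike-in block, 28 in replicates 2 and 3 and 13 to 102 with 1 array left out. The untreated difference called 83, and 0 (offset 1 or median centring), 51 (offset 64), 39 without a filter, 133 and 176 with the replicate and spike-in blocks, 393 (groups compared), 617 (weights), 231 (replicates 2 and 3), 127 of all probe sets and 0 to 396 with 1 array left out. The treated difference called 807, and 231, 507, 27, 2886, 1297 and 81 to 1544 in the order offset 1, median centring, groups compared, weights, all probe sets and 1 array left out. The interaction called 23, and 1 and 55 with offsets of 1 and 64, 8 and 9 with median and quantile scaling, 12 without a filter, 360 with weights, 5 in replicates 2 and 3 and 1 to 113. Median centring moved the median of all genes from 0.104 to -0.148 (untreated) and from 0.188 to -0.159 (treated difference), and the share called higher from 51% to 68.2% (WT response) and from 50.9% to 16.6% (treated difference).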
